A study of Mus musculus with 12 samples.

Results

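The mitochondrial genome of the mouse was followed in intestinal stem cells (ISCs) of young and old animals. Its members were all genes whose symbol begins with mt-, which gave 37 of the 54232 genes in the count table: 13 protein genes, 22 tRNA genes and 2 rRNA genes. The mitochondrial genome is a small circle of DNA kept apart from the nucleus. It is read from both strands into long precursor RNAs, in which tRNAs lie between the other genes and mark where the precursor is cut. Its proteins are core subunits of the respiratory chain and of ATP synthase, and its rRNAs and tRNAs serve the ribosomes inside mitochondria that make those proteins.

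The ISCs came from female mice aged 2 months (young) or 22 months (old) and had been sorted from small intestinal crypts. Each of the 12 libraries, 3 in each of 4 groups, came from 1 mouse. Mice of the SM6 groups were wild type (strain C57/Bl6), and SM6 names a sort on surface markers. Mice of the Lgr5-GFP groups carried Lgr5-EGFP-IRES-CreERT (written CreERT2 in the study's methods), a reporter and Cre recombinase driven by Lgr5, a receptor gene active in ISCs, and no agent or deletion was given for them. The labels give the surface marker sort for all 12 libraries, but in a legend among the study's supplements the reporter mice were sorted on GFP. Strain and isolation changed together, so their effects cannot be told apart.

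The libraries held between 970472 and 3815425 counts (median 1424340), and every pair of replicates differed by more than sampling noise. All 14 listed stem cell markers had counts, and so did all 13 Paneth cell markers. Defensin transcripts, made by Paneth cells, took between 1.26% and 8.24% of the counts in SM6 young, 4.98% and 23.1% in SM6 old, 5.57% and 23.2% in Lgr5-GFP young, and 2.27% and 3.86% in Lgr5-GFP old. The defensin share was thus lower in every old than in every young library of Lgr5-GFP, while the ages overlapped in SM6. In SM6 the ages separated on other lists instead. The 14 stem cell markers summed to between 13533 and 17342 CPM (counts scaled to a common library total) in young and 7933 and 9033 in old libraries. The 9 goblet cell markers summed to between 5927 and 9168 CPM in young and 14483 and 18271 in old, and the 12 immediate early genes to between 490.0 and 631 in young and 309.6 and 447 in old. In Lgr5-GFP these 3 lists overlapped between ages. In sorted cells measured in bulk, fewer cells of a type and less RNA per cell cannot be told apart.

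Most tRNA counts came from genes read off the light strand, the strand that carries 8 of the 22 tRNA genes and the protein gene mt-Nd6. Several heavy-strand tRNA genes leave a read no room clear of a neighbour, as given below. The 8 light-strand tRNA genes held 3463 of the 3688 tRNA counts, and the 14 heavy-strand tRNA genes held 225. Their sequences are shown because the age differences described below lie among them, and because neighbours of similar length differed widely in counts. Each is written 5′ to 3′ in DNA letters from GENCODE vM21 transcripts (GRCm38, chromosome M, minus strand), with the anticodon in capitals, found as the middle of a 7-base loop closed by 5 base pairs. 
mt-Tq: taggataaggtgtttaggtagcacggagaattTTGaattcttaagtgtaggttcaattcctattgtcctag
mt-Ta: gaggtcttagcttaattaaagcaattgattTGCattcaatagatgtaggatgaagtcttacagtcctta
mt-Tn: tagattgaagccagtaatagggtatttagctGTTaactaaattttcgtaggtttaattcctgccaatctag
mt-Tc: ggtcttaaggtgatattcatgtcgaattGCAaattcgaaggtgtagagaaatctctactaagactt
mt-Ty: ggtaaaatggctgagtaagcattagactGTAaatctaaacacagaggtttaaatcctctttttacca
mt-Ts1: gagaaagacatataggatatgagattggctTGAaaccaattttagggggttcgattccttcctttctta
mt-Te: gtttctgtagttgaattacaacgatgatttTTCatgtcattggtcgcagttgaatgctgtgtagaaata
mt-Tp: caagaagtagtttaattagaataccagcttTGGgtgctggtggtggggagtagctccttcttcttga

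The glutamine tRNA gene mt-Tq (chrM:3772-3842) had the most counts, 1724 over the 12 libraries. It was followed by the proline tRNA gene mt-Tp (chrM:15356-15422) with 724, the cysteine tRNA gene mt-Tc (chrM:5192-5257) with 487 and the glutamate tRNA gene mt-Te (chrM:14071-14139) with 461. The alanine tRNA gene mt-Ta (chrM:5018-5086) had 65 counts and the asparagine tRNA gene mt-Tn (chrM:5089-5159) had 2. The tyrosine tRNA gene mt-Ty (chrM:5260-5326) and the serine tRNA gene mt-Ts1 (chrM:6870-6938) stood at 0 in every library. Thus mt-Tc lay between neighbours on its strand, mt-Tn and mt-Ty, that were almost or wholly without counts. These genes are 66 to 71 bases long and the cDNA reads were 72 bases, so a read aligned over its full length reaches past the gene. A 72-base window that overlapped the heavy-strand genes mt-Tv, mt-Tk, mt-Tg, mt-Tr, mt-Th, mt-Ts2 or mt-Tl2 always reached another gene on that strand. mt-Tl1 had 4 windows free of such a neighbour, and the other heavy-strand tRNA genes had 65 (mt-Tw) to 69 (mt-Tf). Light-strand tRNA genes had 29 (mt-Tc) to 142 (mt-Tq), but mt-Tq had 0 with neighbours on both strands counted. The part of such neighbours in the low heavy-strand counts was not tested. Whether the counts came from mature tRNAs or from longer precursors was not tested.

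Of the 37 members, 19 passed the filter on low counts and were tested: 8 protein, 9 tRNA and 2 rRNA genes. The 18 others were 5 protein genes (mt-Co2, mt-Co3, mt-Atp6, mt-Atp8 and mt-Nd4l) and 13 tRNA genes. Of these tRNA genes, mt-Tw, mt-Ty, mt-Ts1, mt-Td, mt-Tk, mt-Tg and mt-Th were at 0 in every library, as were the protein genes mt-Atp8 and mt-Nd4l. A count of 0 allows up to 3 counts in a library. The tRNA genes mt-Tf, mt-Ti, mt-Tn, mt-Tr, mt-Ts2 and mt-Tl2 had between 2 and 28 counts over all libraries. Hence 9 of the 37 members were never counted.

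The protein genes with almost no counts lie next to each other, and the same stretch has a copy in the nuclear genome. On chromosome 1, between 24611535 and 24616197 (GRCm38), 7 annotated pseudogenes follow the mitochondrial sequence from 6394 to 11042 in the same order. Of 72-base windows, the length of a read, 99.5% were found in a nuclear copy for mt-Co2, 99.5% for mt-Atp6, 99.9% for mt-Co3, 97.8% for mt-Nd3 and 98.7% for mt-Nd4l. These genes encode subunits of complex IV (mt-Co2, mt-Co3), ATP synthase (mt-Atp6) and complex I (mt-Nd3, mt-Nd4l). The share was 61.6% for mt-Nd4, 41.2% for mt-Co1, 5.998% for mt-Nd2 and 2.00% for mt-Nd5, and it was 0 for mt-Nd1, mt-Nd6 and mt-Cytb. For mt-Atp8 it was also 0, since that gene lies in a gap of 233 bases between the annotated copies, for which no transcript was searched.

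Over the 12 libraries mt-Co3 had 3 counts, mt-Co2 and mt-Atp6 had 1 each and mt-Nd3 had 56. The copy of mt-Co3, Gm28437, had 1540 counts and that of mt-Atp6, Gm10925, had 459. Of the 7 copies on chromosome 1, 5 were identical to the mitochondrial gene over the aligned bases, 783 of them for Gm28437. The copy of mt-Nd3, Gm28438, differed at 1 of 345 bases. The first 60 bases of both are shown with that base in capitals, since no other base in the aligned stretch tells the gene from its copy, on chrM:9459-9518 (plus strand) and chr1:24613060-24613119 (minus strand).
mt-Nd3: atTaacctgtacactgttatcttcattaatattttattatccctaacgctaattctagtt
Gm28438: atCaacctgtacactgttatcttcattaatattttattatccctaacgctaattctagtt

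Altogether 12 nuclear copies held 2985 counts, between 0.201% and 0.328% of the mitochondrial counts of a library. How reads that match both places were counted is not given in the sources used here, so counts of these genes and of their copies cannot be assigned to either place. Among the 10 copies tested, 1 was called in the age effect averaged over both isolations, in which 2.66% of all genes were called and 0.598% were called higher in old ISCs. This was Gm28437, at a log2 difference of 0.48 (SE 0.13, edgeR adjusted p = 0.0417). All 11 members that lie wholly inside the copied stretch, 6 protein and 5 tRNA genes, together had 78 counts.

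**Figure D1:**
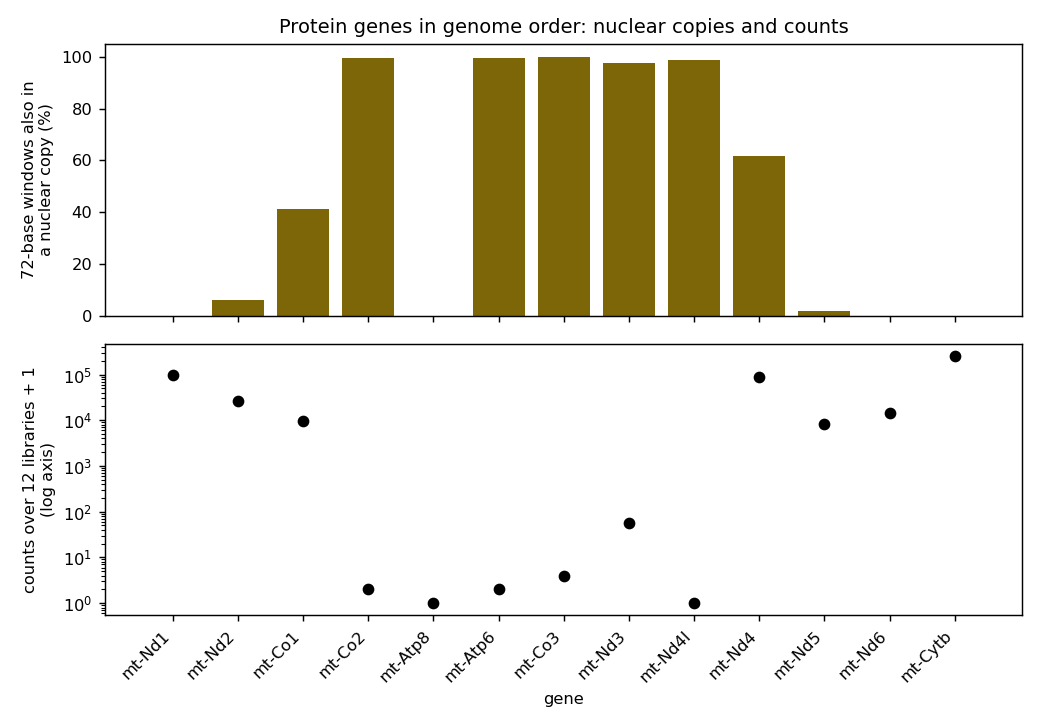
Upper panel: for the 13 protein genes in genome order, the share (percent) of 72-base windows that also occur in an annotated nuclear copy. Lower panel: counts over the 12 libraries plus 1, on a log axis. The 5 genes with over 97% of their windows in a copy have at most 56 counts, and mt-Atp8, in the gap between copies, has 0.

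The classes differed by far in level. The rRNA genes held 723039 counts over all libraries, the protein genes 502144 and the tRNA genes 3688. Levels per kilobase of gene cannot be ranked for genes whose counts cannot be assigned. Among the others, mean levels over the 12 libraries were highest for the large rRNA gene mt-Rnr2, at 22498 CPM per kilobase. They were 11291 for mt-Cytb (complex III), 5426 for mt-Nd1, 4307 for the small rRNA gene mt-Rnr1 and 3360 for mt-Nd4. The light-strand genes mt-Nd6, at 1474, and mt-Tq, at 1404 CPM per kilobase, lay close to mt-Nd2 at 1342. Lower levels were found for mt-Tp (625), mt-Tc (465), mt-Te (394), mt-Co1 (341) and mt-Nd5 (245). Reads of these libraries start near the 3′ ends of transcripts, so levels per kilobase understate long genes. Matches to the nuclear copy Gm29216 lie between bases 6394 and 6872, and 6872 is the 3′ end of mt-Co1. The effect of this copy on the level of mt-Co1 was not tested.

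The tRNA class took a larger share of the library in old than in young ISCs. In SM6, tRNA genes took 0.0192%, 0.0115% and 0.0144% of all counts in the young libraries (replicates 1 to 3) and 0.0205%, 0.0279% and 0.0238% in the old ones. In Lgr5-GFP, the young libraries had 0.00750%, 0.0141% and 0.0105%, and the old libraries 0.0292%, 0.0288% and 0.0548%. Every old library lay above every young library of its isolation. In SM6 this rested on mt-Tq, which held 103, 70 and 109 of the 317, 201 and 183 tRNA counts in young libraries. In SM6 old it held 139, 266 and 158 of 260, 412 and 372, and the other tRNA genes together overlapped between ages. As a share of mitochondrial counts, the tRNA class overlapped between ages in SM6 (exact permutation p = 0.2) and not in Lgr5-GFP. In SM6 the summed stem cell markers and immediate early genes (lower in old) and goblet cell markers (higher in old) also separated the ages. The defensin share did so in Lgr5-GFP. The part of these lists in the tRNA shares was not tested. The mean difference over both isolations was 0.0180 percentage points (exact permutation test within isolations, two-sided p = 0.005, the smallest it can give; adjusted over the 3 classes 0.015). Within 1 isolation, 3 against 3 libraries cannot go below an exact p of 0.1, which was reached in both. Each library held between 155 and 532 tRNA counts. Wilson 95% intervals ran from 0.00668% to 0.00842% for the lowest share and from 0.0504% to 0.0597% for the highest. The lowest share was that of the library with the most counts, and the highest that of the library with the fewest. The part of depth was not tested.

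For the protein class, and for the rRNA class on average over both isolations, the difference was within the spread between libraries. The rRNA difference had opposite signs in the isolations. It was -0.419 percentage points in SM6 (exact permutation p = 0.3) and 2.55 in Lgr5-GFP (exact permutation p = 0.1, the smallest possible). The rRNA genes took 4.02%, 4.49% and 4.33% in SM6 young and 4.36%, 3.73% and 3.49% in SM6 old, which overlap. In Lgr5-GFP the young libraries had 1.77%, 2.79% and 3.57% and the old ones 4.24%, 4.84% and 6.69%, with no overlap. The mean difference over both isolations was 1.07 percentage points (exact permutation p = 0.15, adjusted over the 3 classes 0.225), and 0.707 without Lgr5-GFP old replicate 3 (exact permutation p = 0.255). The share of protein genes lay between 2.24% and 2.71% in 11 libraries and at 3.85% in Lgr5-GFP old replicate 1. Its mean difference was 0.242 percentage points (exact permutation p = 0.42), and 0.0241 without that library. The Lgr5-GFP groups without overlap in rRNA share are also those without overlap in defensin share. With defensin genes removed from the totals, the rRNA difference was 1.11 percentage points (exact permutation p = 0.075) and the tRNA difference 0.0190 (exact permutation p = 0.005). Removing them rescales the shares and does not test the part of Paneth cells.

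**Figure D2:**
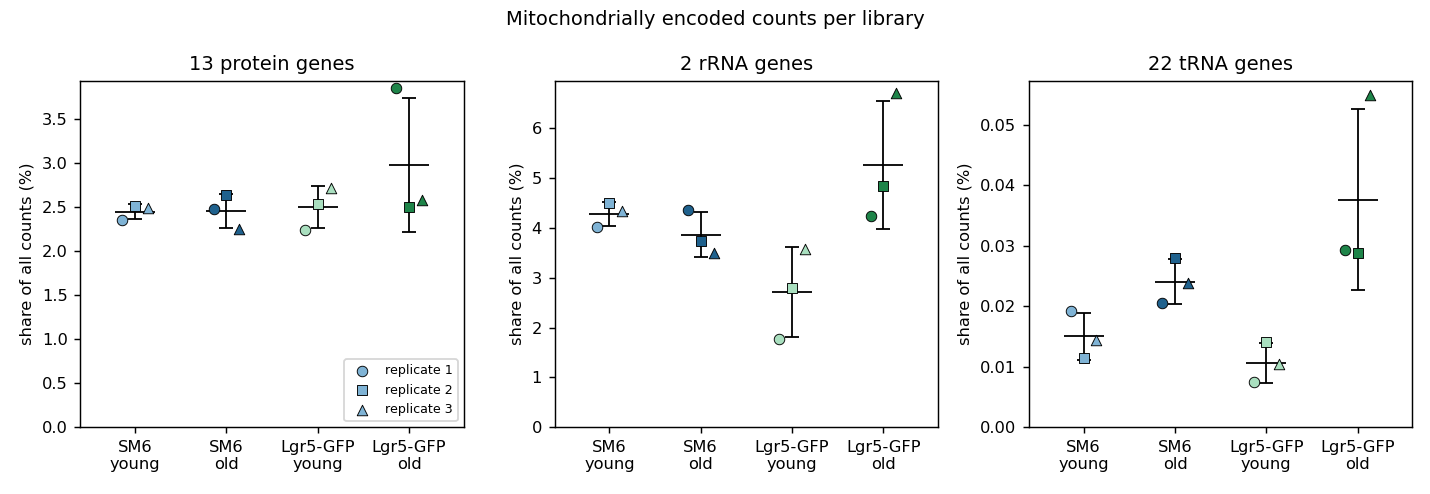
Share of all counts (percent) in the 13 protein, 2 rRNA and 22 tRNA genes for each library, by group. Symbols are replicates, and bars give the mean and SD (n = 3). The old libraries lie above the young ones of their isolation for tRNA genes, for rRNA genes in Lgr5-GFP alone, and for protein genes in neither isolation.

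To ask which members moved with age, old was compared with young for each gene in each isolation and on average over both. A gene was called at a Benjamini-Hochberg adjusted p under 0.05 over the 13368 genes tested (edgeR quasi-likelihood). In SM6, 1 of the 19 tested members was called, against 2.42% of all genes. In Lgr5-GFP 4 were called, against 0.494%, and on average over both isolations 4 were called, against 2.66%. All of these calls were higher in old ISCs, a direction called in 0.643% (SM6), 0.194% (Lgr5-GFP) and 0.598% (average) of all genes, and 3 of the 4 average calls were light-strand tRNA genes. Of the 19 tested members, mt-Tv, mt-Tl1 and mt-Tt passed the filter on low counts through old libraries alone, which favours a positive value for them. The 16 others passed it in both ages, and all 16 had an average log2 fold change above 0 (median 0.39, beside -0.026 over all genes tested). This describes the members that passed, and it includes mt-Cytb at 0.013, whose sign turned under other settings.

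**Figure D3:**
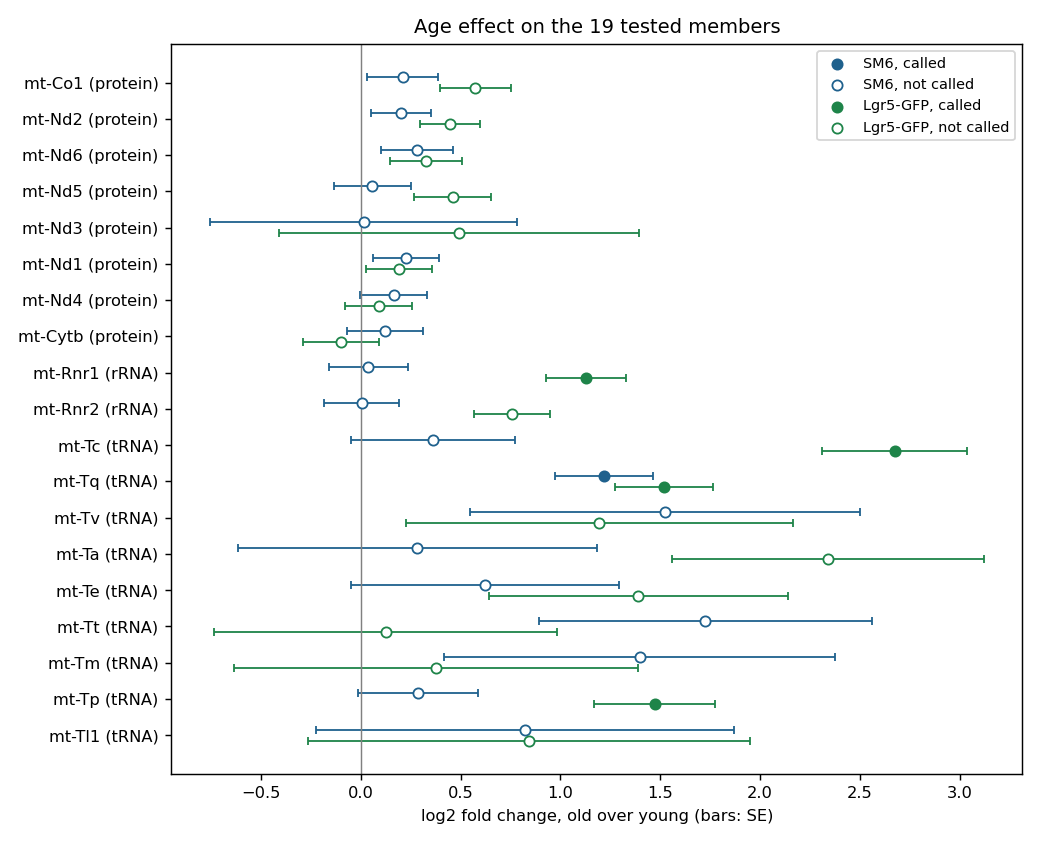
Log2 fold change of old over young (points) with its SE (bars) for the 19 tested members in SM6 and in Lgr5-GFP, grouped by class. Filled points were called. The called points are mt-Tq in both isolations and mt-Tc, mt-Tp and mt-Rnr1 in Lgr5-GFP, while the protein genes lie between -0.097 and 0.57.

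Counts on the gene of the glutamine tRNA rose with age in both isolations. mt-Tq stood at 62.3, 38.7 and 78.5 CPM in the young libraries of SM6 and at 108, 180.0 and 126 in the old ones. In Lgr5-GFP it stood at 48.7, 62.3 and 46.2 CPM in young and 125, 125 and 196 in old mice. No old library overlapped the young ones in either isolation, which held for 17.5% of all genes in SM6 and 14.5% in Lgr5-GFP. The log2 fold change was 1.22 in SM6 (SE 0.24, edgeR adjusted p = 0.00566), 1.52 in Lgr5-GFP (SE 0.25, adjusted p = 0.00393) and 1.37 on average (SE 0.17, adjusted p = 6.42e-05). The average call was kept in every fit that left out 1 library, with values from 1.25 to 1.49. The call in SM6 was lost without SM6 young replicate 2 (0.98, edgeR adjusted p = 0.0681) and without SM6 old replicate 2 (0.98, edgeR adjusted p = 0.0645).

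Counts on the gene of the cysteine tRNA rose in Lgr5-GFP. mt-Tc stood at 6.91, 18.9 and 14.03 CPM in the young and at 43.9, 62.4 and 133 in the old libraries of Lgr5-GFP. In SM6 it stood at 15.7, 11.6 and 11.5 CPM in young and 16.3, 15.6 and 18.3 in old mice, with overlap. These are 22, 20 and 34 counts against 66, 77 and 138 in Lgr5-GFP, and 26, 21 and 16 against 21, 23 and 23 in SM6. The log2 fold change was 2.67 in Lgr5-GFP (SE 0.36, edgeR adjusted p = 0.000592) and 0.36 in SM6 (SE 0.41, adjusted p = 0.793). The difference of the age effects was 2.31 (SE 0.55, edgeR adjusted p = 0.0497), the only member called of 19 in this comparison, against 0.658% of all genes. That call lay just under the threshold and was lost in 10 of 12 fits without 1 library, with values from 1.73 to 2.62. It was also lost in the fit that held the defensin share as covariate (2.17, edgeR adjusted p = 0.253), with filterByExpr (2.31, edgeR adjusted p = 0.0612) and by limma-voom (2.06, adjusted p = 0.193), which called mt-Rnr1 there instead. The average effect of mt-Tc, 1.52 (SE 0.27, edgeR adjusted p = 0.00212), was kept in all 12 of those fits.

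Counts on the gene of the proline tRNA rose in Lgr5-GFP as well. mt-Tp stood at 18.5, 39.6 and 16.1 CPM in young and 59.1, 42.1 and 91.4 in old libraries, and the lowest old library lay just above the highest young one. In SM6 it stood at 35.7, 39.2 and 31.0 CPM in young and 44.3, 50.7 and 34.2 in old mice, with overlap. The log2 fold change was 1.47 in Lgr5-GFP (SE 0.30, edgeR adjusted p = 0.0268), 0.29 in SM6 (SE 0.30, adjusted p = 0.768) and 0.88 on average (SE 0.21, adjusted p = 0.0222). The Lgr5-GFP call was lost with the defensin share as a covariate (1.34, edgeR adjusted p = 0.155) and without Lgr5-GFP young replicate 1 or 3 or old replicate 1 or 3, with values from 1.14 to 1.53. Without 1 library, the average call was lost for SM6 young replicate 3, SM6 old replicates 1 and 2, Lgr5-GFP young replicates 1 and 3 and Lgr5-GFP old replicate 3, at values from 0.72 to 0.88.

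The remaining tested light-strand tRNA genes, mt-Te and mt-Ta, were not called with the filter used here and all 12 libraries. mt-Te reached 61.7 CPM in SM6 young replicate 1 and 94.8 in SM6 old replicate 3, while the other libraries of SM6 lay between 3.602 and 15.5. On average it differed by 1.01 on the log2 scale (SE 0.50, edgeR adjusted p = 0.411), and both of those libraries weighed on the value. It was 0.24 without SM6 old replicate 3 (edgeR adjusted p = 0.883), and 1.84 and called without SM6 young replicate 1 (edgeR adjusted p = 0.0435). Without Lgr5-GFP old replicate 3 it was 0.59. With no filter mt-Te was called at 0.99 (edgeR adjusted p = 0.00041). mt-Ta, with at most 18 counts in a library, had an average log2 fold change of 1.31 (SE 0.60, edgeR adjusted p = 0.352). The 4 tested heavy-strand tRNA genes, mt-Tv, mt-Tl1, mt-Tm and mt-Tt, had at most 8 counts in a library and average log2 fold changes between 0.83 and 1.36. None of these 4 was called, at SEs between 0.61 and 0.76. Single libraries moved these values: mt-Tm was 0.59 without Lgr5-GFP young replicate 1, and mt-Tl1 was 1.27 without Lgr5-GFP young replicate 3 (0.83 with it). The values of mt-Tv, mt-Tl1 and mt-Tt are biased upward, since each passed the filter only through 1 or 2 old libraries of SM6.

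The rRNAs of the mitochondrial ribosome rose in part, in Lgr5-GFP. mt-Rnr1, the small rRNA, stood at 2000.3, 2440.2 and 3031 CPM in the young and 6897, 3623 and 5811 in the old libraries of Lgr5-GFP. In SM6 the young libraries stood at 4362, 4237 and 4013 CPM and the old ones at 4387, 3974 and 4586, which overlap. Its log2 fold change was 1.13 in Lgr5-GFP (SE 0.20, edgeR adjusted p = 0.0079), 0.038 in SM6 (SE 0.20, adjusted p = 0.972) and 0.58 on average (SE 0.14, adjusted p = 0.02). Without Lgr5-GFP old replicate 1 the Lgr5-GFP value was 0.92 and no longer called (edgeR adjusted p = 0.0739). The average call was lost in 6 of 12 fits without 1 library, at values from 0.48 to 0.59. The difference of the age effects was 1.09 (SE 0.28, edgeR adjusted p = 0.0802). It was called by limma-voom (1.21, adjusted p = 0.015), by DESeq2 (1.09, adjusted p = 0.00965), with no filter (1.08), and without Lgr5-GFP young replicate 3 (1.26) or Lgr5-GFP old replicate 2 (1.31).

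mt-Rnr2, the large rRNA, stood at 19221, 26454 and 30892 CPM in Lgr5-GFP young and 31797, 41025 and 56696 in Lgr5-GFP old. The groups did not overlap, as for 14.5% of all genes, and the log2 fold change of 0.76 was not called (SE 0.19, edgeR adjusted p = 0.0776). It was called without Lgr5-GFP old replicate 1 (0.94, edgeR adjusted p = 0.0444), the fit in which mt-Rnr1 was not, and without SM6 old replicate 3 (0.76, edgeR adjusted p = 0.0261). DESeq2 (0.77, adjusted p = 0.0107) and edgeR with no filter (0.74, adjusted p = 0.000874) also called it. Without Lgr5-GFP old replicate 3 it was 0.51 (edgeR adjusted p = 0.478). In SM6 its value was 0.0034 (SE 0.19, edgeR adjusted p = 1.00). On the share of all counts, the rRNA genes in SM6 were lower in old mice by a mean of -0.419 percentage points (exact permutation p = 0.3), so the sign for SM6 depends on the scaling.

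The ratio of the large to the small rRNA set 1 library apart. Its counts gave 4.61 in Lgr5-GFP old replicate 1, and between 8.19 and 11.3 in the 11 other libraries. The same library had the highest share of protein counts, and it decided the Lgr5-GFP call of mt-Rnr1. With it, the mean age difference in the ratio was -0.934 (exact permutation p = 0.53), and without it 0.054 (exact permutation p = 0.89). This ratio was examined after its values were seen.

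**Figure D4:**
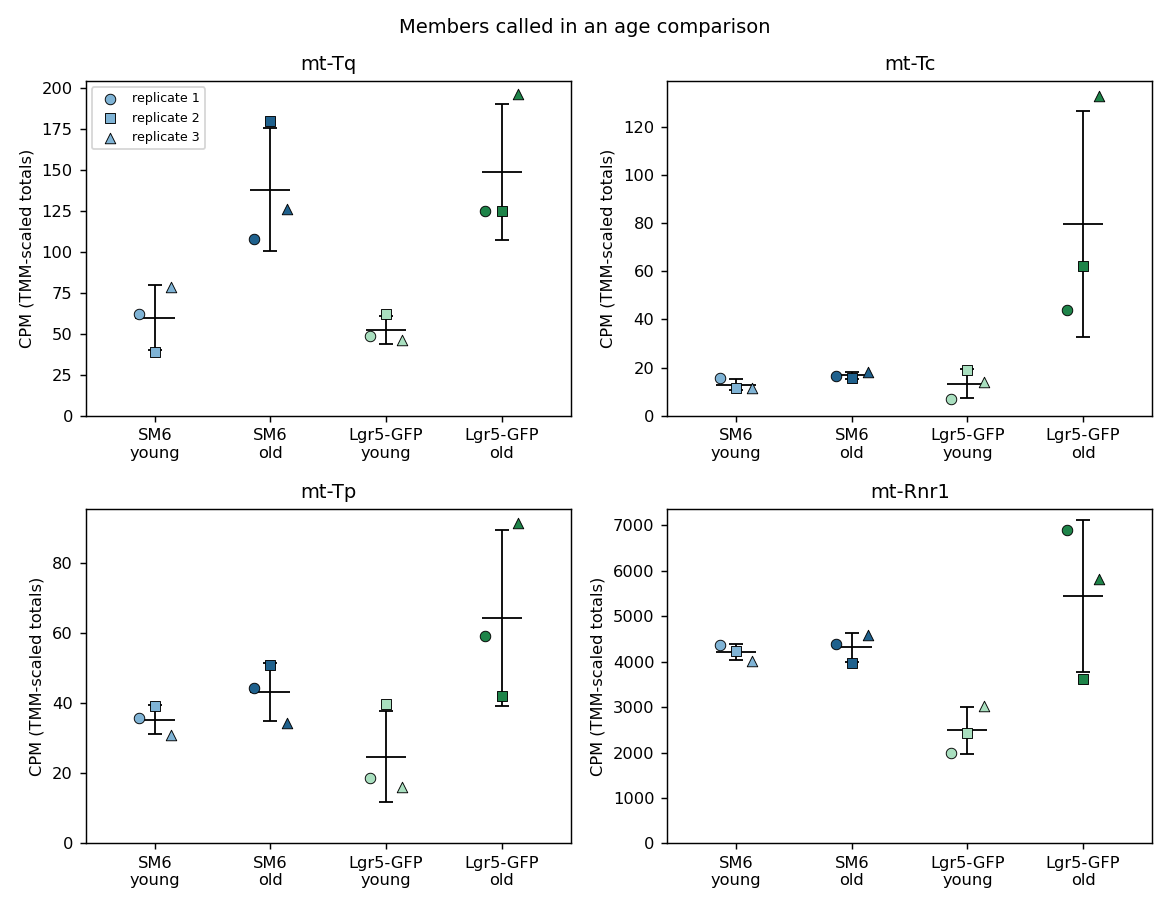
CPM on TMM-scaled totals of the 4 members called in an age comparison, for each library by group. Symbols are replicates, and bars give the mean and SD (n = 3). mt-Tq is higher in old ISCs of both isolations, and mt-Tc, mt-Tp and mt-Rnr1 in old ISCs of Lgr5-GFP.

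With all 12 libraries, no protein gene was called in an age comparison by edgeR, although 3 of 8 had an unadjusted p under 0.05 on average, beside 12.8% of all genes. These were mt-Co1, a complex IV subunit, at 0.39 (SE 0.13, edgeR adjusted p = 0.115), mt-Nd2, a complex I subunit, at 0.32 (SE 0.11, adjusted p = 0.126), and mt-Nd6 at 0.30 (SE 0.13, adjusted p = 0.282). DESeq2 and limma-voom called mt-Co1 and mt-Nd2, 2 of 8 each, against 2.87% and 3.47% of all genes, and edgeR called mt-Co1 without SM6 old replicate 3 (0.47, adjusted p = 0.0197). In SM6 0 had an unadjusted p under 0.05, beside 13.1% of all genes, and in Lgr5-GFP 3 did, beside 9.78%. mt-Co1 stood at 406, 443 and 441 CPM in Lgr5-GFP young and 698, 548 and 674 in Lgr5-GFP old, without overlap. mt-Nd2 stood at 1085, 1259 and 1289 CPM in Lgr5-GFP young and 1586, 1749 and 1616 in Lgr5-GFP old, again without overlap. In SM6 it stood at 1339, 1204 and 1238 against 1509.6, 1484 and 1356. Groups without overlap were found for 14.5% of all genes in Lgr5-GFP and 17.5% in SM6.

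The other complex I genes had average log2 fold changes of 0.21 (mt-Nd1), 0.25 (mt-Nd3, SE 0.58), 0.13 (mt-Nd4) and 0.26 (mt-Nd5). None was called in any fit run, and 1 library moved each of them. Without Lgr5-GFP old replicate 1, mt-Nd1 was 0.12 and mt-Nd4 0.032, and mt-Nd4 was 0.081 without SM6 old replicate 2. Without SM6 young replicate 3, mt-Nd5 was 0.16. With 1 library left out mt-Nd3, at 56 counts in all, ran from 0.026 to 0.60. By counts per kilobase mt-Cytb ranked first among the protein genes. That rank leaves out mt-Co2, mt-Co3, mt-Atp6, mt-Nd3 and mt-Nd4l, whose counts cannot be told from those of their nuclear copies. mt-Cytb had 0.013 (SE 0.13, edgeR adjusted p = 0.989), with an approximate 95% interval from -0.25 to 0.28. Its levels in Lgr5-GFP old were 18183, 10229 and 10697 CPM, so replicate 1 lay well above the others there too. Without that library the value was -0.15.

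mt-Nd6 is read off the light strand like the 3 called tRNA genes, so counts of the light-strand tRNA genes were set against it in each library. There were 31.97, 12.5 and 21.4 light-strand tRNA counts per 100 mt-Nd6 counts in SM6 young and 22.5, 27.6 and 43.9 in SM6 old. In Lgr5-GFP the young libraries had 12.3, 21.0 and 11.4 and the old ones 28.4, 28.9 and 53.6. The ages overlapped in SM6 and did not overlap in Lgr5-GFP. The mean difference was 15.7 (exact permutation p = 0.03). Leaving out 1 library at a time gave values from 11.6 to 18.2 with p-values from 0.01 to 0.07, and in 6 of the 12 cases the p-value was not under 0.05. This ratio was chosen after values were seen. Most of its tRNA counts are those of the 3 called genes, so its p-value is no separate support for their rise.

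Next, the isolations were set against each other within each age, as Lgr5-GFP over SM6. In young mice 0 of 19 members were called by edgeR, against 0.0898% of all genes, and 2 had an unadjusted p under 0.05, beside 7.48%. DESeq2 also called 0, against 0.165% of all genes, and limma-voom called 1, likewise against 0.165%. The 2 were the rRNA genes, mt-Rnr1 at -0.76 (SE 0.20, edgeR adjusted p = 0.243) and mt-Rnr2 at -0.53 (SE 0.19, adjusted p = 0.496), lower in each Lgr5-GFP than in each SM6 library. Groups without overlap were found for 13.7% of all genes. In old mice mt-Tc alone was called, with a log2 fold change of 2.23 (SE 0.36, edgeR adjusted p = 0.00146), against 0.718% of all genes. All 3 Lgr5-GFP old libraries lay above all SM6 old ones, a lack of overlap found for 13.5% of all genes, and the call was kept without any 1 library, at values from 1.66 to 2.53. In old mice the 9 goblet cell markers summed to between 14483 and 18271 CPM in SM6 and 3396 and 6045 in Lgr5-GFP, and the 11 enteroendocrine cell markers to between 1090.5 and 2587 in SM6 and 78.3 and 183 in Lgr5-GFP. The stem cell markers (7933 to 9033 in SM6, 12475 to 13986 in Lgr5-GFP), the Paneth cell markers (54346 to 267345 in SM6, 25072 to 41799 in Lgr5-GFP) and the immediate early genes (309.6 to 447 in SM6, 509 to 639 in Lgr5-GFP) did not overlap either. In young mice the enteroendocrine cell markers were apart as well, at 756 to 1479 CPM in SM6 and 136 to 253 in Lgr5-GFP. Their part in these differences was not tested. These comparisons share their libraries with the age comparisons.

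The nuclear genes that copy, read, cut, modify and translate the mitochondrial genome were described as a list of 91, of which 88 were tested. In the average age effect edgeR called 0 of 88, beside 2.66% of all genes, and DESeq2 and limma-voom also called 0, beside 2.87% and 3.47%. The median log2 fold change was 0.068, and 4 genes had an unadjusted p under 0.05, beside 12.8% of all genes. Those 4, named after their values were seen, were Iars2 and Kars, which charge tRNAs with isoleucine and lysine, at 0.52 and -0.28, the nuclease gene Mgme1 at 0.38 and the tRNA methyltransferase gene Trmt5 at 0.77. In SM6 0 were called, beside 2.42% of all genes, with 3 at an unadjusted p under 0.05, beside 13.1%. In Lgr5-GFP 0 were called, beside 0.494%, with 4 at an unadjusted p under 0.05, beside 9.78%. Polrmt, the mitochondrial RNA polymerase, had 0.26 (SE 0.20), and Elac2, which cuts the 3′ ends of tRNAs from the precursor, had -0.36 (SE 0.18). Cars2, which charges the cysteine tRNA, had 0.22 (SE 0.32) and Pars2, for proline, had -0.32 (SE 0.27). At such low shares of calls over all genes, a count of 0 is no result about the list.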

How the data were processed

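RNA of sorted ISCs was sequenced from 3′ ends in 12 libraries. Reads had been aligned by the authors with STAR 2.4.2a (GRCm38) and assigned to GENCODE genes by featureCounts. The deposited values are raw counts. The setting for strand, the handling of reads that match several places and the use of the molecular identifiers are not given in the sources used here. Positions and sequences came from GENCODE vM21, a later release on the same build, in which 54165 of 54232 identifiers were found. Genes overlap on opposite strands in places, so without a stated strand setting their reads cannot be told apart.

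Genes with more than 5 reads and at least 1 CPM in at least 1 library were kept (13368). Counts were scaled by TMM and fitted in R 4.3.3 with edgeR 4.0.16 (quasi-likelihood, 1 mean per group, two-sided, Benjamini-Hochberg adjustment over all tested genes, called under 0.05). DESeq2 1.42.0 and limma 3.58.1 (voom) served as alternatives. All fits were tested on simulated data first. Class shares were compared by exact permutation of age within isolation. Library totals were 970472 to 3815425 counts. Wilson intervals cover counting error only, and replicates differed by more than that. Nuclear copies were sought as exact 72-base matches in annotated transcripts, not in the whole genome. All 37 members are named as the subject, with values in each library for members called in an age comparison. The members, lists and tests were chosen with earlier results of these data known. Each mouse gave 1 library, and the labels name no sequencing batch.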

Additional observations from a re-analysis of the deposited data

Results flagged for a closer look

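The age effect on mt-Tc passed the threshold of the test of a difference between the isolations, and only just. It was larger in Lgr5-GFP than in SM6 by 2.31 on the log2 scale (SE 0.55; edgeR, adjusted p = 0.0497), and all 3 old Lgr5-GFP libraries lay above all other libraries. Over the alternatives and the fits without 1 library, the adjusted p ran from 6.04e-05 to 0.253. The call was lost in 10 of 12 fits without 1 library, and also with filterByExpr, by limma-voom and once the defensin share entered the fit. Strain and isolation cannot be told apart in this difference. Groups of 3 libraries are too small to test for a sample that stands apart.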

How the results depend on the processing

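Alternatives for the scaling, filter, test, threshold, covariate and libraries were run for every count of called members. In SM6, the count of 1 called tRNA gene ranged from 0 to 1 when 1 library was left out. In Lgr5-GFP, DESeq2 called 1 protein gene (edgeR 0), and it called 2 rRNA genes (edgeR 1), as did the fit with no filter; leaving out 1 library gave 1 to 2 rRNA genes, and the 1 called without Lgr5-GFP old replicate 1 was mt-Rnr2, not mt-Rnr1. On average over both isolations, DESeq2 and limma-voom each called 2 protein genes, and leaving out 1 library gave 0 to 1. The 1 rRNA gene called on average became 0 with library totals alone, 2 with no filter, 0 at a threshold of 0.01, and 0 to 1 without 1 library. The 1 member called for the difference of the age effects became 0 with filterByExpr, at a threshold of 0.01 and with the defensin covariate, 2 with no filter and with DESeq2, and 0 to 1 without 1 library. The member was mt-Rnr1 in place of mt-Tc with limma-voom and without Lgr5-GFP young replicate 3 or Lgr5-GFP old replicate 2. Between isolations in young mice, 0 called members became 2 with no filter and 1 with limma-voom. The difference in the share of protein genes turned from 0.242 to -5.01 percentage points as a share of mitochondrial counts (exact permutation p = 0.275). The average effect of mt-Cytb turned to -0.0022 with no filter and ran from -0.15 to 0.086 when 1 library was left out. It was -0.063 when SM6 old replicate 3 was omitted and -0.012 when Lgr5-GFP young replicate 3 was. The difference in the rRNA ratio ran from -1.62 to 0.054. The cause was not tested. Counts scaled by library totals alone moved the median of all genes to -0.16 in SM6 and 0.16 in Lgr5-GFP. Libraries of the same number did not deviate together (correlations from -0.044 to 0.022), so they share only a number; with the replicate block the average calls were 0 protein, 3 tRNA and 1 rRNA genes, as without it. The tRNA share kept its direction and its side of 0.05 under all alternatives run, with exact p-values from 0.005 to 0.0312. Depth limited tRNA genes the most of the 3 classes, at 155 to 532 counts per library.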
